A study of Homo sapiens with 20 samples.

Results

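Contacts of poised enhancers that changed in the same way in definitive endoderm and in neuroectoderm were taken from a matrix of interaction scores. A contact is a pair of genomic fragments, 1 captured end (the bait) and 1 other end, and its CHiCAGO score rises with the evidence for more ligation reads than the background allows. Exit-gained contacts had a score of 5 or more in both lineages and below 5 in both primed pluripotent states. Exit-lost contacts had a score of 5 or more in both primed states and below 5 in both lineages. Of 182303 contacts within chromosomes, 2238 were exit-gained (1.23%) and 767 were exit-lost (0.421%), 3005 in all out of 766138 contacts of any kind.

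The series measured 20 Poised Enhancer Capture Hi-C libraries, 2 for each of 10 conditions, and gave 1 pooled score per condition. Both lineages and most of the other conditions came from HNES1, a human embryonic stem cell line kept in the naive state. DE cells were HNES1 cells at day 14 of the transition to the primed state that were turned to definitive endoderm, with 1 day in Activin A, CHIR99021, FGF2, PI-103 and BMP4 followed by 2 days in Activin A, PI-103, FGF2 and LDN193189. NE cells were HNES1 cells at day 14 that spent 10 days in A8301 and LDN193189 and were sorted for CD56 and for absence of EpCAM. The earlier conditions were naive HNES1 cells, grown on mouse feeder cells with PD0325901, LIF, Gö6983 and XAV939, and HNES1 cells at days 1, 3, 5, 7 and 10 of the transition in XAV939. The primed states were HNES1 cells at day 14 of that transition and H9, an established primed embryonic stem cell line grown in mTeSR-E8. H9 is another cell line in another medium, so line and culture cannot be told apart, and DE and NE share their starting culture. No expression data were used here, so the labelled cell types could not be checked against their markers.

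Poised enhancers are distal elements of developmental genes that carry active and Polycomb-repressed chromatin marks at once in pluripotent cells. Polycomb proteins can bring such elements and the promoters of silent developmental genes, HOX and other homeobox genes among them, close together in the nucleus. When cells leave pluripotency, some of these elements become active enhancers of the lineage and others stay or become silent.

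The scores of DE, NE, day 14 and H9 chose the members, so they are given as a description. Exit-gained contacts had a median score of 6.33 in DE and 6.30 in NE, against 1.98 at day 14 and 2.08 in H9. Exit-lost contacts had a median score of 2.30 in DE and 2.19 in NE, against 6.10 at day 14 and 6.12 in H9. Most members lay near the threshold: the lower of the 2 called scores was below 6 in 1423 exit-gained contacts (63.6%) and in 528 exit-lost contacts (68.8%). A score of 3 or more in at least 1 of the uncalled conditions was found in 1065 exit-gained (47.6%) and 424 exit-lost contacts (55.3%). Both uncalled scores were below 1 in 231 (10.3%) and 80 (10.4%). The exit-gained contact nearest to the threshold had a lower called score of 5.00074, and the contact just outside had 4.99919 in NE. Among exit-lost contacts these values were 5.00032 and 4.99996. With 1 pooled value per condition there was no replicate spread and no test between conditions, the read depth was unknown, and the 95% intervals below (exact binomial for shares, order statistics for medians) cover counting error only.

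**Figure D1:**
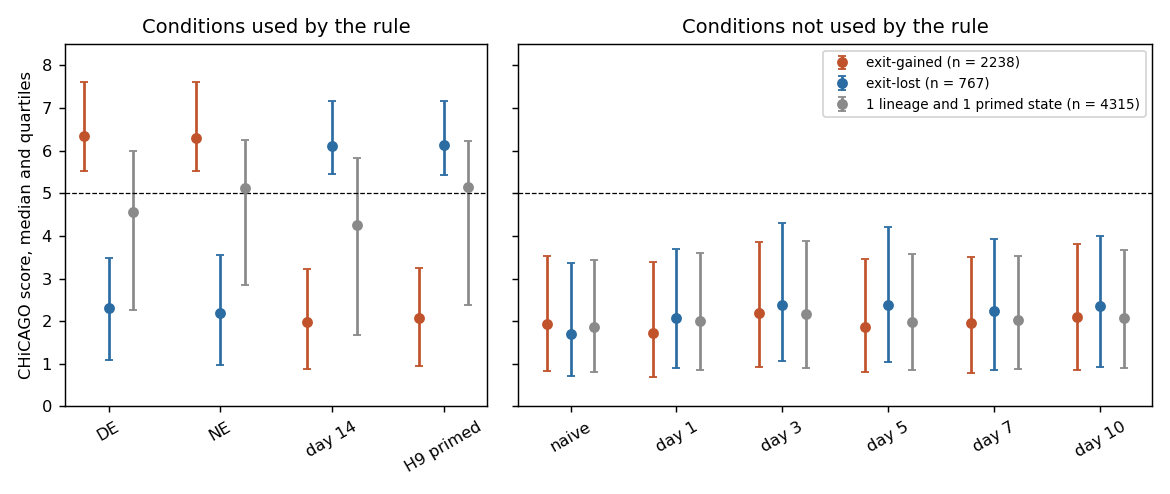
Median CHiCAGO score (points) with quartiles (bars) of exit-gained contacts, exit-lost contacts and contacts called in exactly 1 lineage and 1 primed state, by condition; the dashed line is the score of 5 that counts as called. The left panel shows the 4 conditions that chose the members, and in the right panel all medians lie between 1.70 and 2.39.

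Calls of the opposite conditions often lay beside a member. In 1061 exit-gained contacts (47.4%) the same bait had a called contact at day 14 or in H9 with an other end within 10 kb, and in 363 exit-lost contacts (47.3%) the same held for DE or NE. The share was 17.2% for contacts called in 1 lineage only and 20.5% for contacts called in 1 primed state only.

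Sharing between the lineages was low, and between the primed states lower. DE and NE shared 3743 called contacts, 12.7% of the DE calls and 11.5% of the NE calls. Day 14 and H9 shared 1762, 8.60% of the day 14 calls and 7.42% of the H9 calls. With the lineages, day 14 shared 10.0% (DE) and 11.2% (NE) of its calls, and H9 10.0% (DE) and 10.9% (NE). As shares of their own calls, the primed states thus shared less with each other than with either lineage. As shares of the partner's calls the order turned. Contacts shared with day 14 were 7.42% of H9 calls, against 6.96% of DE and 7.04% of NE calls. Contacts shared with H9 were 8.60% of day 14 calls, against 8.04% of DE and 7.91% of NE calls. The 4 conditions had 29563 calls in DE and 32672 in NE, against 20498 at day 14 and 23764 in H9, so exit-gained contacts had more calls to come from. When each condition was held to the same number of top-scoring contacts, 1381 contacts were exit-gained and 791 exit-lost. Contacts called in exactly 1 lineage and exactly 1 primed state numbered 4315, and these mixed contacts, also called in 2 of the 4 conditions, serve below as the closest comparison. By pair they numbered 879 (DE and day 14), 1116 (DE and H9), 1059 (NE and day 14) and 1261 (NE and H9). Each of these pairs held more contacts than the 767 called only at day 14 and in H9, the exit-lost set. These counts are not scaled to the calls of each condition.

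The promoters of genes on which the results turn are shown first, as 300 bases from RefSeq (GRCh38.p14), 250 before the annotated start and 50 after it, with each CG dinucleotide in capitals. HOXA10, EVX1 and NKX2-1 stand for exit-lost contacts of homeobox genes, and DKK1 and FOXD2 for exit-gained contacts. The HOXA10 promoter at chr7:27174271-27174570 (minus strand) lay inside the other end that took part in the most exit-lost contacts. The others were at chr7:27242552-27242851 (plus strand) for EVX1, chr14:36519507-36519806 (minus strand) for NKX2-1, chr10:52314031-52314330 (plus strand) for DKK1 and chr1:47437794-47438093 (plus strand) for FOXD2. The EVX1 and FOXD2 windows lay outside the linked fragments, which ended 0.409 kb and 0.913 kb from the annotated starts.
HOXA10: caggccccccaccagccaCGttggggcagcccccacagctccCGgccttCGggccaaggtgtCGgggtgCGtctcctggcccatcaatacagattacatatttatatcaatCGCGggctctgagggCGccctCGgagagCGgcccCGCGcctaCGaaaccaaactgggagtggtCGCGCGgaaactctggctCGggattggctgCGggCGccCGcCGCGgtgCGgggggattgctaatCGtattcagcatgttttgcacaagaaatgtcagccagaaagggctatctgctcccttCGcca
EVX1: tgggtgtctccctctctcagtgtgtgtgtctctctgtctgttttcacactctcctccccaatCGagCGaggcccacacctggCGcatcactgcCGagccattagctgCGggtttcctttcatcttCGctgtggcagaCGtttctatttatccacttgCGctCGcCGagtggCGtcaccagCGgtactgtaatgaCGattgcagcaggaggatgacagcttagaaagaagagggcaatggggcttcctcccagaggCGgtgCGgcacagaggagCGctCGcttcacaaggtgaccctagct
NKX2-1: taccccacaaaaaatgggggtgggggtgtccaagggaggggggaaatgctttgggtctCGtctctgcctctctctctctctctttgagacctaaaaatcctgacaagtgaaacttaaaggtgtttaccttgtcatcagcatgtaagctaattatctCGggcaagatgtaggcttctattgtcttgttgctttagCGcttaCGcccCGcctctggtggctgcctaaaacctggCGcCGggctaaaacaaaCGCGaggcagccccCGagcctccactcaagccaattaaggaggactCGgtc
DKK1: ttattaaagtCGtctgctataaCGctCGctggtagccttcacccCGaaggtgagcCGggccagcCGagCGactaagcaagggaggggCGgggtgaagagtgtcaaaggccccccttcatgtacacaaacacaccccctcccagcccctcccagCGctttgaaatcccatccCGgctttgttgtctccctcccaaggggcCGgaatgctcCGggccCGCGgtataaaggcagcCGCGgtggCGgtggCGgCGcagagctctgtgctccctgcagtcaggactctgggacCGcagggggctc
FOXD2: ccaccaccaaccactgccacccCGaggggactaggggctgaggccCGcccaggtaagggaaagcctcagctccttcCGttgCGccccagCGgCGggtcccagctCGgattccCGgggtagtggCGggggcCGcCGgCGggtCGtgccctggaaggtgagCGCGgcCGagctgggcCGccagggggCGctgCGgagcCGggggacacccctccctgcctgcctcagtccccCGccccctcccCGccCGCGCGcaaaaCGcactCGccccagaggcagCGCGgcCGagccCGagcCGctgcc

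These windows held 25 CG dinucleotides at HOXA10, 17 at EVX1, 11 at NKX2-1, 20 at DKK1 and 32 at FOXD2. Over the promoters linked to members the median was 25 for 411 promoters of exit-gained and 24 for 207 promoters of exit-lost contacts, against 25 for mixed contacts and 21 for all 22059 promoters of protein-coding genes in the table. The homeodomain core TAATTA, read on both strands, was found in 1.70% of exit-gained and 1.45% of exit-lost promoters, against 2.95% of mixed-contact promoters and 3.39% of all promoters. The letters AGATAA, recognised by zinc-finger factors of the GATA family, were found in 4.38% of exit-gained and 4.83% of exit-lost promoters, against 4.82% of mixed-contact promoters and 7.92% of all. TAATCC, bound by OTX factors, was found in 3.16% and 3.86%, against 5.35% of mixed-contact promoters and 5.47% of all. AGGGGGCGC, part of the CTCF motif, was found in 4.38% and 4.35%, against 3.08% of mixed-contact promoters and 2.44% of all. The DpnII site GATC was found in 40.6% and 39.1%, against 40.4% of mixed-contact promoters and 40% of all. Exit-gained and exit-lost promoters differed by less than 2 percentage points in each of these, and a match is not evidence of binding.

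Genes were linked to a contact where an annotated start of a protein-coding gene fell on either end of the contact or within 1 kb of it. For 4188 genes without a promoter in the table, either annotated end was used, among them FZD7, ADAMTS8, SMUG1, HOXC11, HOXC8, PDX1, SOX17, OLIG2 and CBX2. The strand of these genes was not available, so their links can be to the far end of the gene and need not mark its promoter. By this rule 584 exit-gained contacts (26.1%, interval 24.3 to 28.0) and 248 exit-lost contacts (32.3%, 29.0 to 35.8) held a gene, against 26.0% of mixed contacts. A contact counts under each gene it is linked to. A gene lay at the bait of 179 exit-lost contacts (23.3%) and of 463 exit-gained contacts (20.7%), against 19.8% of mixed contacts. A gene lay at the other end of 104 exit-lost contacts (13.6%) and of 163 exit-gained contacts (7.28%), against 8.58% of mixed contacts.

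Homeobox genes, the DNA-binding regulators of body patterning, took a larger share of exit-lost than of exit-gained contacts. The 39 HOX genes and 127 other homeobox genes of the list were linked to 54 exit-lost contacts (7.04%, interval 5.33 to 9.09) and 34 exit-gained contacts (1.52%, 1.05 to 2.12), against 1.92% of mixed contacts. Their share of all calls was 1.42% in DE and 1.33% in NE, against 2.10% at day 14 and 2.37% in H9. At the other end they were found in 42 exit-lost contacts (5.48%, 3.98 to 7.33) and 14 exit-gained contacts (0.626%, 0.342 to 1.05), against 0.742% of mixed contacts. In 13 exit-lost contacts both ends held a homeobox gene, which no exit-gained contact did. Contacts inside the HOXA cluster were among these 13. Both ends held a homeobox gene in 1 of 4315 mixed contacts and in 128 of all 182303 contacts within chromosomes. With the baits within 500 kb of the HOXA genes left out, the other-end shares were 2.70% of exit-lost (1.65 to 4.13) and 0.584% of exit-gained contacts, against 0.583% of mixed contacts.

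**Figure D2:**
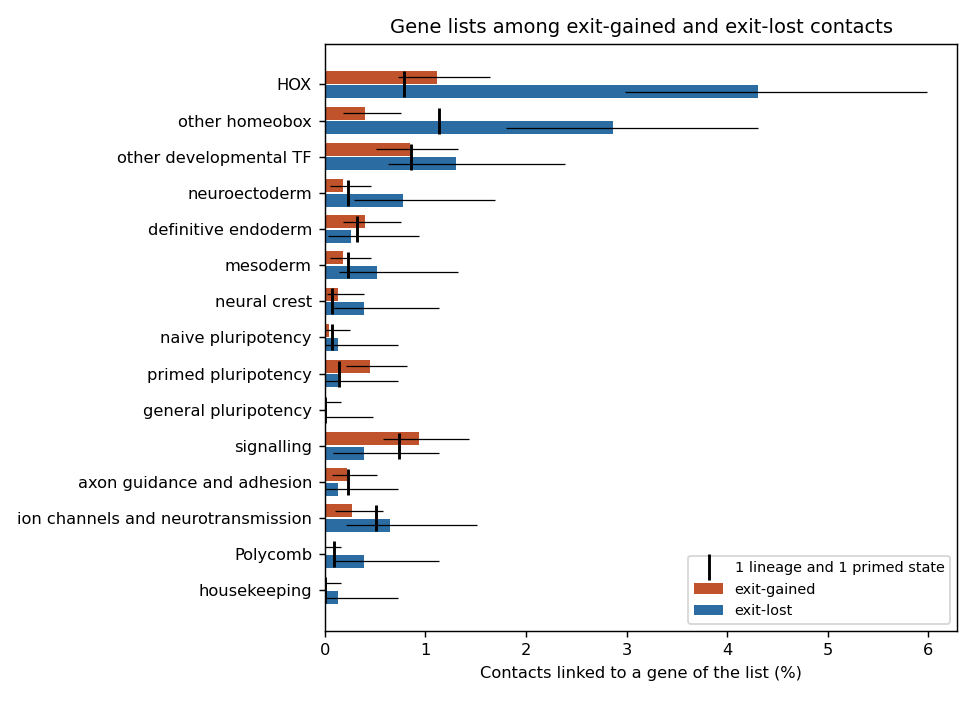
Percent of exit-gained and of exit-lost contacts linked to a gene of each list, with exact 95% intervals; black marks give contacts called in exactly 1 lineage and 1 primed state. HOX genes (1.12% of exit-gained and 4.30% of exit-lost contacts) and other homeobox genes (0.402% and 2.87%) differed most between the sets.

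The 4 HOX clusters differed in their counts. The HOXA cluster had 4 exit-gained and 21 exit-lost contacts (0.179% and 2.74% of the sets), the HOXB cluster 3 and 8 (0.134% and 1.04%), the HOXC cluster 15 and 1 (0.670% and 0.130%), and the HOXD cluster 3 and 3 (0.134% and 0.391%). All called contacts of HOXA genes numbered 51 in DE and 36 in NE, against 94 at day 14 and 108 in H9. Since the lineages had more calls in all, the clusters are also given as a share of each condition's calls. HOXA genes took 0.173% in DE and 0.110% in NE, against 0.459% at day 14 and 0.454% in H9. HOXB genes took 0.166% in DE and 0.141% in NE, against 0.239% at day 14 and 0.400% in H9. HOXC genes had more calls in DE (76) and NE (85) than at day 14 (59), with 75 in H9, but as a share they were lower in the lineages, at 0.257% in DE and 0.260% in NE, against 0.288% at day 14 and 0.316% in H9. HOXD genes took 0.0710% in DE and 0.0643% in NE, against 0.112% at day 14 and 0.101% in H9.

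**Figure D3:**
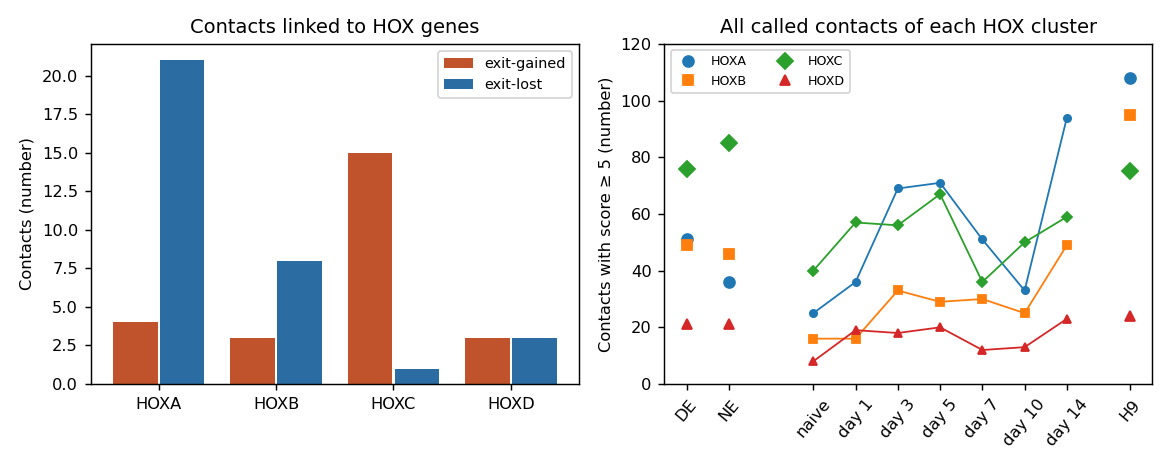
Left, the number of exit-gained and exit-lost contacts linked to the genes of each HOX cluster. Right, all called contacts of each cluster, not scaled to the total calls of a condition, in DE, NE, the days of the transition (lines) and H9; HOXA stood at 51 in DE and 36 in NE, against 94 at day 14 and 108 in H9, with 33 at day 10.

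HOXA10, a HOX gene of posterior and limb patterning, had the most exit-lost contacts of any gene. Its 13 contacts came from 11 baits and spanned 3.91 to 84.1 kb (median 64.9), and no exit-gained contact was linked to it. In DE their lowest, median and highest scores were 0.190, 2.58 and 4.53, and in NE 0, 1.70 and 3.74. At day 14 they were 5.19, 6.95 and 11.6, and in H9 5.01, 6.57 and 12.8. These are the values that chose the contacts. In conditions that did not, the median was 1.68 in naive cells and then 1.65 (day 1), 5.32 (day 3), 3.39 (day 5), 3.58 (day 7) and 3.73 (day 10). None of the 13 was called in naive cells and 7 were called at day 3.

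In 10 of these 13 contacts the other end was the same fragment, chr7:27171932-27178101, which holds the HOXA10 promoter printed above. Its partners lay along the cluster. A bait at HOXA9 scored 2.11 in DE and 3.15 in NE, against 9.41 at day 14 and 5.38 in H9. A bait 1.73 kb from HOXA4 scored 1.49 in DE and 2.25 in NE, against 6.95 at day 14 and 8.27 in H9. The highest member of the group joined 2 fragments 4.14 kb apart within HOXA10, with 2.23 in DE and 3.29 in NE against 11.6 at day 14 and 12.8 in H9. All calls of this fragment numbered 6 in DE and 3 in NE, against 16 at day 14 and 18 in H9.

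Other HOXA genes followed. HOXA2, which patterns the hindbrain, had 4 exit-lost contacts that shared 1 other end, 2 of them to baits near SKAP2 about 245 to 247 kb away. One of the SKAP2 baits scored 2.37 in DE and 0 in NE, against 5.93 at day 14 and 9.82 in H9. HOXA3 had 3 exit-lost and 2 exit-gained contacts, so that gene was not of 1 direction. Its contact with a bait at HOXA9 over 47.0 kb scored 1.16 in DE and 0.331 in NE, against 9.69 at day 14 and 8.08 in H9.

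EVX1, the even-skipped type homeobox gene next to HOXA13, had no call in DE or NE, against 6 at day 14 and 7 in H9. Its 3 exit-lost contacts shared 1 other end and reached baits near HOXA10, HOXA11 and HOXA13. The contact near HOXA10 scored 0.547 in DE and 0.513 in NE, against 8.59 at day 14 and 6.57 in H9. The contact near HOXA11 scored 0 in DE and 0.625 in NE, against 5.71 at day 14 and 7.67 in H9. That contact was called at days 7 and 10 as well (5.66 and 7.14), while the contact near HOXA10 was not called before day 14.

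**Figure D4:**
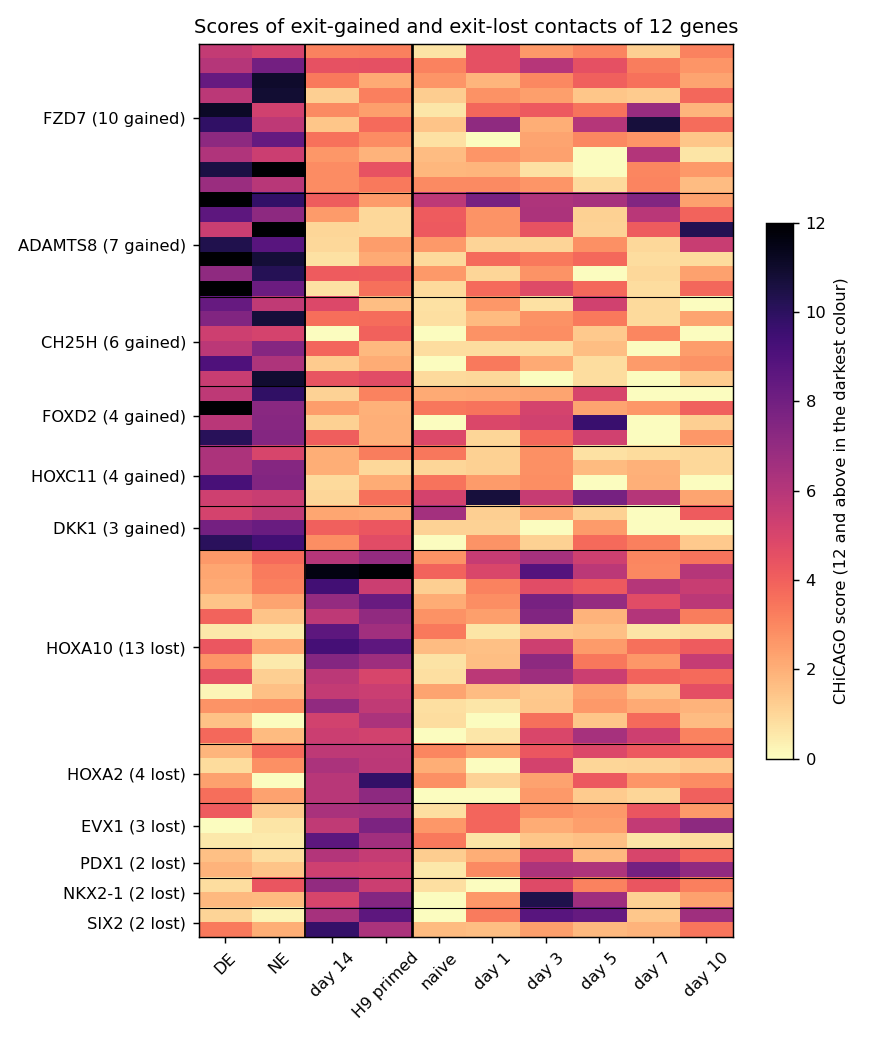
CHiCAGO scores of the contacts of 12 genes (exit-gained above, exit-lost below; each line of cells is 1 contact, ordered by distance within a gene) in DE and NE, then day 14 and H9, then the conditions the rule did not use. HOXA10 contacts are darkest at day 14 and in H9 and partly dark at day 3, and CH25H and DKK1 contacts are dark in DE and NE with 1 call each in all earlier conditions.

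Homeobox genes outside the HOX clusters had 22 exit-lost contacts (2.87%) and 9 exit-gained contacts (0.402%), against 1.14% of mixed contacts. Of the 115 of them linked to any contact, 14 had more exit-lost than exit-gained contacts and 5 had more exit-gained. Of all 9644 linked protein-coding genes, 180 had more exit-lost and 444 had more exit-gained contacts. SIX2, a regulator of kidney progenitors, had 0 calls in DE and NE, against 5 at day 14 and 7 in H9. Its 2 exit-lost contacts ended at the fragment that holds its start. With a bait 0.614 kb from its paralogue SIX3, a regulator of the forebrain and eye, SIX2 scored 1.07 in DE and 0.246 in NE, against 6.43 at day 14 and 8.58 in H9. This contact was also called at day 3 (8.76), day 5 (8.35) and day 10 (6.63), and was at 0 in naive cells.

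Further exit-lost contacts joined neighbouring developmental regulators. The bait at CDX2, a caudal-type homeobox gene of gut and trophectoderm, and the fragment with an annotated end of PDX1, the pancreatic homeobox gene, 43.5 kb away, scored 1.56 in DE and 0.831 in NE, against 6.06 at day 14 and 5.55 in H9. NKX2-1, a regulator of ventral forebrain, lung and thyroid, had 1 call in each lineage, against 12 at day 14 and 7 in H9. Its 2 exit-lost contacts reached baits near PAX9, a regulator of foregut pouches and sclerotome. The contact over 146 kb scored 1.77 in DE and 1.72 in NE, against 5.01 at day 14 and 7.41 in H9, and 10.4 at day 3.

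CBX2, a Polycomb subunit that reads methylated histone H3, had 2 exit-lost contacts. The list of 37 Polycomb genes had 3 exit-lost and no exit-gained contacts, the limit that 0 of 2238 allows being 0.165%. The exit-lost share was 0.391% (interval 0.0807 to 1.14), against 0.0927% of mixed contacts and 0.118% of all contacts within chromosomes, so neither count stood apart from the background.

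Contacts between 2 baits, where both ends had been chosen as poised enhancers, were few in both sets. They numbered 20 exit-gained (0.894%, interval 0.547 to 1.38) and 13 exit-lost (1.70%, 0.906 to 2.88), against 0.858% of mixed contacts, so the intervals overlapped. The gene nearest to an end was within 10 kb and on the transcription factor lists in 5 of the 19 distinct exit-gained pairs (26.3%, interval 9.15 to 51.2) and in 9 of the 12 exit-lost pairs (75%, 42.8 to 94.5). The share was 50% of 34 mixed pairs and 38.1% of all 1847 pairs, and the intervals of exit-gained and exit-lost pairs overlapped. Of the exit-gained pairs 6 listings were over 1 Mb long.

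Exit-lost pairs of baits recurred at a few loci. Near OTP, which specifies neurons of the hypothalamus, a bait 4.23 kb from the gene and a bait 66.9 kb from TBCA scored 1.36 in DE and 1.35 in NE, against 9.63 at day 14 and 6.27 in H9, with 8.35 at day 3. VAX1 and EMX2, homeobox genes of the ventral and dorsal forebrain, were joined over 411 kb by a bait at VAX1 and a bait 6.83 kb from EMX2, with 0 in DE and 1.03 in NE, against 5.66 at day 14 and 5.25 in H9. NR2E1, a nuclear receptor of neural stem cells, had 3 pairs with baits 41.8 to 44.4 kb from OSTM1. In 1 of them the scores were 2.15 in DE and 1.79 in NE, against 7.91 at day 14 and 6.75 in H9. Near MEIS2, a HOX cofactor, 2 exit-lost pairs came from baits 1.39 and 2.05 kb from the gene and 2 exit-gained pairs from a bait 5.12 kb from it, all over 214 to 222 kb. These baits lay outside the 1 kb margin, so the pairs do not count under MEIS2.

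The 2238 exit-gained contacts were linked to 490 genes and the 767 exit-lost contacts to 237, with 69 genes in both. FZD7, a receptor for WNT ligands and a gene linked by either annotated end, had the most exit-gained contacts, with 10 from 1 bait. That bait lay 0.478 kb beyond the higher-coordinate end of the gene and outside the 1 kb margin of the other end. The strand was not available, so this can be the far end, and a link by the start alone could leave FZD7 without these contacts. The 10 contacts reached other ends 56.1 to 265 kb away on both sides. Their lowest, median and highest scores were 5.60, 6.95 and 11.1 in DE and 5.08, 6.95 and 13.9 in NE. At day 14 they were 1.22, 2.91 and 4.49, and in H9 1.88, 3.18 and 4.54. Before day 14, 1 was called at each of days 1, 3 and 5, 3 at day 7 and none in naive cells or at day 10. All calls of FZD7 numbered 37 in DE and 23 in NE, against 10 at day 14 and 21 in H9. These 10 contacts were all that the list of primed pluripotency genes held among exit-gained contacts, and FZD7 also had 1 exit-lost contact.

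An FZD7 contact over 114 kb scored 8.34 in DE and 11.0 in NE, against 3.36 at day 14 and 2.15 in H9. A contact on the same side, 141 kb away, scored 11.1 in DE and 5.24 in NE, against 2.93 at day 14 and 2.42 in H9. The first was below 5 in all earlier conditions, and the second had 6.87 at day 7.

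Signalling genes as a list had 21 exit-gained contacts (0.938%, interval 0.582 to 1.43) and 3 exit-lost contacts (0.391%, 0.0807 to 1.14), against 0.742% of mixed contacts. FZD7 gave 10 of the 21, all by the link to its higher-coordinate end, which need not mark its promoter. DKK1, a secreted inhibitor of WNT signalling, had 3 exit-gained contacts from 3 baits, 1 of which holds the promoter printed above. That bait and a fragment 255 kb away scored 10.0 in DE and 9.38 in NE, against 2.83 at day 14 and 4.64 in H9. WIF1, another secreted WNT inhibitor, had 2 exit-gained contacts with the gene at the other end. From a bait 55.5 kb from TBC1D30, it scored 6.10 in DE and 6.09 in NE, against 0 at day 14 and 1.41 in H9. CHRD, the BMP antagonist chordin, had 2 exit-gained contacts, 9 calls in NE and 6 in DE, against none at day 14 and 4 in H9.

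Definitive endoderm genes had 9 exit-gained contacts (0.402%, interval 0.184 to 0.762) and 2 exit-lost contacts (0.261%, 0.0316 to 0.939), against 0.324% of mixed and 0.236% of all contacts, so both lay near the background. CER1, a secreted NODAL and BMP antagonist of the anterior endoderm, had 2 exit-gained contacts from neighbouring baits to the same other end 22.1 and 23.1 kb away. The nearer contact scored 11.3 in DE and 5.74 in NE, against 2.08 at day 14 and 1.46 in H9. The farther contact scored 8.58 in DE and 11.8 in NE, against 0 at day 14 and 0.736 in H9. Neither was called in the earlier conditions, where their highest score was 2.43. SOX17, a regulator of definitive endoderm, had 2 exit-gained contacts from 1 bait. Its contact over 231 kb scored 11.98 in DE and 7.04 in NE, against 3.76 at day 14 and 1.00 in H9, and 5.47 in naive cells. Both genes belong to endoderm, yet their contacts were called in NE too, as the rule required.

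Neuroectoderm genes had 4 exit-gained (0.179%, interval 0.0487 to 0.457) and 6 exit-lost contacts (0.782%, 0.288 to 1.70), against 0.232% of mixed and 0.229% of all contacts. The exit-lost ones lay at SIX6, NKX2-1 and VAX1 among others. Mesoderm genes had 4 exit-gained (0.179%) and 4 exit-lost contacts (0.522%, interval 0.142 to 1.33), against 0.232% of mixed and 0.236% of all contacts. Neural crest genes had 3 exit-gained (0.134%) and 3 exit-lost contacts (0.391%, interval 0.0807 to 1.14), against 0.0695% of mixed and 0.124% of all contacts. OLIG2, a regulator of motor neuron and oligodendrocyte progenitors, had 2 exit-gained contacts. One scored 6.41 in DE and 7.98 in NE, against 0.978 at day 14 and 4.54 in H9, and the other 5.61 in DE and 5.90 in NE, against 0 in both primed states. Naive pluripotency genes had 1 of each and general pluripotency genes had none of either. Ion channel genes had 6 exit-gained (0.268%) and 5 exit-lost contacts (0.652%), against 0.510% of mixed and 0.423% of all contacts. Axon guidance genes had 5 (0.223%) and 1 (0.130%), against 0.232% of mixed and 0.298% of all contacts, and housekeeping genes had 0 and 1.

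The HOXC locus at chr12:53926965-54219215 had 79 baits, 32 exit-gained contacts and 9 exit-lost contacts, the most exit-gained contacts of any locus. These were 1.43% of exit-gained (interval 0.980 to 2.01) and 1.17% of exit-lost contacts (0.538 to 2.22), so the locus as a whole favoured neither set. Its calls were 0.907% of all calls in DE and 0.799% in NE, against 1.06% at day 14 and 0.913% in H9. HOXC11, a posterior HOX gene, had 4 exit-gained contacts from 1 bait. Over 191 kb it scored 9.21 in DE and 7.46 in NE, against 0.937 at day 14 and 2.09 in H9, with no call earlier. HOXC8, a thoracic HOX gene, had 1 exit-lost contact and 4 exit-gained contacts, all 5 with an end on the SMUG1 side of the cluster, 160 to 184 kb away for the exit-gained contacts and 195 kb for the exit-lost one. Among the exit-gained contacts, a bait 14.4 kb from SMUG1, a DNA repair glycosylase gene, met a fragment linked to HOXC4, HOXC5, HOXC6 and HOXC8. This contact scored 9.27 in DE and 7.98 in NE, against 3.67 at day 14 and 1.56 in H9. In the exit-gained HOXC11 contacts 2 of the 4 ended on the SMUG1 side as well. Chromosome 12 as a whole held 10.1% of exit-gained and 7.82% of exit-lost contacts, against 7.71% of DE, 7.70% of NE, 8.40% of day 14 and 6.63% of H9 calls.

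FOXD2, a forkhead gene, had 4 exit-gained contacts from 1 bait 0.913 kb from its start, all with fragments 261 to 292 kb away. They scored 5.76, 15.2, 5.89 and 10.1 in DE and 9.86, 7.27, 7.34 and 7.43 in NE, in order of distance. At day 14 they scored 1.12, 2.47, 1.14 and 4.05, and in H9 3.10, 1.96, 1.98 and 1.98. The same distal stretch was reached by 2 exit-gained bait-to-bait pairs over 277 and 279 kb, from baits 4.21 and 6.45 kb from FOXD2. All calls of FOXD2 numbered 7 in DE and 16 in NE, against 2 at day 14 and 2 in H9. Earlier it had 2 calls in naive cells and then 2 (day 1), 6 (day 3), 5 (day 5), 0 (day 7) and 6 (day 10), and of the 4 exit-gained contacts 2 were called at day 3 and 3 at day 5.

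Among genes outside the lists, ADAMTS8, a secreted metalloprotease gene, had 7 exit-gained contacts and no exit-lost contact. They clustered 436 to 479 kb away, with a median of 10.3 in DE and 9.82 in NE, against 0.996 at day 14 and 2.47 in H9. CH25H, a cholesterol hydroxylase gene, had 6, with a median of 6.69 in DE and 6.79 in NE, against 3.73 at day 14 and 2.87 in H9. AKAP12, a scaffold gene for protein kinase A, had 7 exit-gained contacts and 3 exit-lost contacts. Its exit-gained contacts came from 4 baits at a median of 308 kb and its exit-lost contacts from 1 bait at 156 to 267 kb. ZNF385A (5 and 3) and ST3GAL5 (4 and 3) also had at least 3 contacts in each set.

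The baits with the most exit-gained contacts after the FZD7 bait were linked to no gene. A bait 12.1 kb from GATA4, a zinc-finger factor of endoderm and heart, had 9 exit-gained contacts. Their median was 6.08 in DE and 7.03 in NE, against 1.74 at day 14 and 3.25 in H9, but 4.51 in naive cells and 4.68 at day 5, where 4 of them were called in each. This bait had 21 calls in DE and 26 in NE, against 9 at day 14 and 23 in H9, so the H9 count lay between those of the lineages. A bait 2.22 kb from NTF3, a neurotrophin gene, had 8, with a median of 6.52 in DE and 7.08 in NE, against 1.57 at day 14 and 1.86 in H9. All calls of the NTF3 bait numbered 29 in DE and 22 in NE, against 6 at day 14 and 5 in H9. A bait 2.06 kb from FOXC2, a forkhead gene of mesoderm, had 7 exit-gained contacts over 307 to 715 kb. A bait 22.6 kb from EPHB3, an ephrin receptor gene, had 8.

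In the larger exit-gained set 100 baits had 3 or more contacts, and in the exit-lost set 13 did. A bait 14.8 kb from LYPD6, a modulator of WNT and nicotinic signalling, had 5, with a median of 1.28 in DE and 3.27 in NE, against 6.63 at day 14 and 6.42 in H9. A bait 2.76 kb from PMP22, a myelin protein gene, had 4, with a median of 2.13 in DE and 2.31 in NE, against 6.90 at day 14 and 6.66 in H9. The PMP22 bait was not new to day 14, since its members had a median of 9.10 at day 1 and 3 of the 4 were called then.

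With baits under 100 kb apart merged, 1237 of 5939 loci held a member, 762 of them exit-gained members only, 200 exit-lost members only and 275 both. After HOXC, the loci with the most exit-gained contacts were those of FZD7, of HES1 (a NOTCH target) and of GATA4, with 18 each. The WNT5B and FOXD2 loci had 17 each, the NTF3 and CHRD loci 16 each, the FOXP4 locus 15 and the PAX3 locus 14. These loci held from 6 baits (FZD7) to 57 baits (FOXP4). Each is named after a gene in its span, which need not be linked to its contacts. At the loci named after HES1, WNT5B, NTF3, FOXP4 and PAX3, no exit-gained contact was linked to that gene. Exit-lost contacts were most frequent at HOXA with 25 (91 baits) and HOXB with 14 (88 baits), and HOXA also held 13 exit-gained contacts. HOXA held 3.26% of exit-lost and 0.581% of exit-gained contacts, against 0.53% of DE, 0.53% of NE, 0.922% of day 14 and 0.854% of H9 calls. HOXB held 1.8% of exit-lost and 0.447% of exit-gained contacts, against 0.62% of DE, 0.49% of NE, 0.62% of day 14 and 0.833% of H9 calls. The locus of CDX2, PDX1 and GSX1 had 7 exit-lost and 1 exit-gained contacts, the HOXD locus 7 and 7, and the NRG2 locus 7 and 5. The exit-gained set was the larger, so equal counts are unequal shares. HOXD held 0.913% of exit-lost (interval 0.368 to 1.87) and 0.313% of exit-gained contacts (0.126 to 0.643). Its share of calls was 0.257% in DE, 0.230% in NE, 0.307% at day 14 and 0.345% in H9.

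Exit-lost contacts were shorter. Their median distance was 166 kb (interval 156 to 180) and 202 of them (26.3%) spanned under 100 kb. Exit-gained contacts had a median of 203 kb (193 to 208) and 446 under 100 kb (19.9%). The median was 184 kb for mixed contacts and 228 kb for all contacts within chromosomes. The order turned at a score threshold of 10, where 116 exit-gained contacts had a median of 295 kb and 27 exit-lost contacts 338 kb.

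The highest scores lay across the centromere of chromosome 16, where the nearest protein-coding gene lay 182 kb away. That chromosome held 8 exit-lost contacts of 11.8 Mb across its centromere, all at exactly 0 in DE and NE, against 5.20 to 251 at day 14 and 14.2 to 317 in H9. The same baits and their neighbours held 12 exit-gained contacts of 11.7 to 11.8 Mb, with 5.10 to 69.8 in DE and 5.14 to 44.6 in NE, against at most 4.95 at day 14 and 4.11 in H9. On chromosome 1, 4 exit-lost contacts of 218 Mb to the same other end were also at 0 in both lineages. Contacts over 1 Mb made up 21 of the exit-gained and 13 of the exit-lost contacts.

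The strongest members within 1 Mb lay near developmental genes in some cases and near other genes in others, KCNMA1, a potassium channel gene, PAFAH2, AFF3 and ABTB2 among them. Among exit-gained contacts, a bait at SST, the somatostatin gene, and a fragment 349 kb away scored 15.6 in DE and 15.9 in NE, against 4.85 at day 14 and 2.87 in H9. A bait 27.4 kb from SIX2 had an exit-gained contact over 515 kb, with 18.5 in DE and 14.1 in NE, against 2.07 at day 14 and 3.52 in H9. Among exit-lost contacts, a bait 1.38 kb from TAL1, a regulator of blood formation, and a fragment 1.92 kb from FOXD2 scored 0 in DE and NE, against 8.07 at day 14 and 8.60 in H9. A bait 2.70 kb from TBX3 and a fragment 33.4 kb from TBX5, T-box genes of limb and heart, scored 0.814 in DE and 0 in NE, against 8.01 at day 14 and 11.1 in H9.

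The conditions before day 14 were not used to choose the members. At least 1 of naive cells and days 1 to 10 called 966 exit-gained contacts (43.2%, interval 41.1 to 45.3) and 379 exit-lost contacts (49.4%, 45.8 to 53.0). The background was 43.8% for mixed contacts, 13.4% for contacts called in 1 lineage only and 13.9% for contacts called in 1 primed state only. Exit-gained contacts were thus at the level of mixed contacts, and only the interval of exit-lost contacts lay above it. The share of all contacts within chromosomes with such an earlier call was 57.1%, above both sets. Every listed contact was called in at least 1 condition, so those not called in DE, NE, day 14 or H9 had to be called earlier. A call in all 6 of the conditions before day 14 was found for 3 exit-gained (0.134%) and 9 exit-lost contacts (1.17%), against 0.324% of mixed contacts. Of these 9 exit-lost contacts 6 were the long contacts across the centromere of chromosome 16. With contacts over 1 Mb left out, 2 exit-gained (0.0902%) and 3 exit-lost contacts (0.398%, interval 0.0821 to 1.16) remained, against 0.325% of mixed contacts.

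By condition, exit-gained contacts were called in 11.3% in naive cells and then in 11.1% (day 1), 14.2% (day 3), 11.5% (day 5), 11.8% (day 7) and 13.5% (day 10). For exit-lost contacts these shares were 10.2%, 14.7%, 18.5%, 17.6%, 15.4% and 16.6%. Of all contacts within chromosomes, 10% were called in naive cells and then 10.1% (day 1), 12.4% (day 3), 11.7% (day 5), 10.2% (day 7) and 10.3% (day 10). In naive cells the 2 sets could not be told apart by their intervals (9.98 to 12.6 for exit-gained). From day 1 the exit-lost share was the higher one, with intervals apart at days 3 and 5. These intervals take contacts as independent, although members share fragments, so they do not test a difference between conditions. The rule also required a call at day 14 of the same transition for exit-lost contacts and none there for exit-gained contacts.

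**Figure D5:**
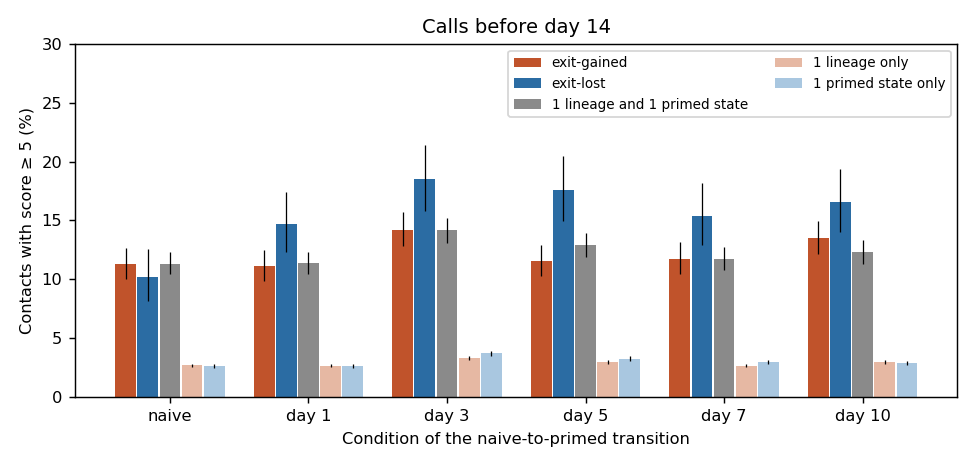
Percent of contacts with a score of 5 or more in naive cells and at days 1 to 10, with exact 95% intervals, for exit-gained, exit-lost and mixed contacts and for contacts called in 1 lineage or 1 primed state only. Exit-lost contacts stand at 18.5% at day 3 and 10.2% in naive cells, and exit-gained contacts stay between 11.1% and 14.2%.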

How the data were processed

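The deposited matrix held 1 column of CHiCAGO interaction scores per condition, each made by the authors from 2 libraries per the labels, so replicates were pooled before deposit and 0 score columns were left unmatched. CHiCAGO scores are log-transformed weighted p-values, and the deposited values were used unchanged. Coordinates were on GRCh38 per the submitters' processing notes. For the aligner, the caller's version, the binning, the filters and the read depth, values are not given in the sources used here. Every listed contact reached 5 in at least 1 condition. Baits had a median length of 629 bp and other ends of 5264 bp.

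The rule, the gene lists and the comparisons were chosen with earlier results of these data known. Genes were 19956 protein-coding genes of RefSeq (GRCh38.p14) after 94 readthrough genes were left out, linked by 30492 annotated starts or, for 4188 genes, by either annotated end. 9644 genes were linked to a contact. Named genes were the 12 with the most contacts of each set, up to 4 per list, genes with 3 contacts in both sets, the 10 loci with the most contacts, the 8 contacts with the largest margin and those nearest the threshold; the 63 genes included 20 linked by either end. Baits with the most contacts, bait-to-bait pairs and the strongest contacts within 1 Mb were added after seeing the data. The margin is the lower called minus the higher uncalled score. Motifs were searched on both strands. The rule and the gene links were tested on simulated data. Python 3.11.15, pandas 2.3.3, numpy 2.4.6, scipy 1.17.1 and matplotlib 3.10.9 were used. Some genes that this rule names are not reported here. Alternatives are listed at the end.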

Additional observations from a re-analysis of the deposited data

Results flagged for a closer look

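Contacts between chromosomes lay outside the comparisons above. Among 583835 of them, 168 met the exit-gained rule and 17 the exit-lost rule. They made up 0.0896% of the 187492 DE calls and 0.108% of the 155291 NE calls for exit-gained contacts, and 0.0541% of the 31432 day 14 calls and 0.0442% of the 38446 H9 calls for exit-lost contacts. No control measured the level of such contacts without ligation, and the part of the larger number of DE and NE calls in this difference was not tested.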

How the results depend on the processing

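The share of homeobox genes was higher among exit-lost than exit-gained contacts in all 17 settings that gave both, but its size varied. Without H9 it was 2.05% of exit-lost contacts, against 2.10% of all day 14 calls. Without day 14 it was 2.27%, against 2.37% of all H9 calls. In these 2 settings the exit-lost share was thus no higher than that of the primed calls. With uncalled scores under 1 it was 2.50% of only 80 contacts. Other orders turned in some settings: the numbers in 2 of 15 (H9 or day 14 left out), the bait-to-bait share and the share with an earlier call in 2 of 15 each, and the median distance in 3 of 15. At a score threshold of 3 there were 8059 exit-gained and 3402 exit-lost contacts, with 66.5% and 69.4% called earlier, an exit-gained median of 192 kb and a homeobox share of exit-lost contacts of 4.03%. At a threshold of 10 there were 116 and 27, with medians of 295 and 338 kb, 51.7% and 59.3% called earlier, and 1.72% and 7.41% between 2 baits. With uncalled scores under 1 there were 231 and 80, with 316 and 286 kb, 22.9% and 37.5% called earlier, 0.433% and 2.50% homeobox genes, and 3.90% of exit-gained contacts between 2 baits. Quantile-normalised scores gave 1345 exit-gained contacts, 217 kb, and 50.8% and 54.7% called earlier. Equal numbers of top contacts gave 1381 exit-gained contacts, 216 kb and 46.9% called earlier. Merging other ends within 10 kb gave 214 and 192 kb, 51.7% and 56.5% called earlier, and 2.50% and 5.26% between 2 baits, a share that is 0 by construction with such contacts left out. Without H9, 17066 contacts were exit-lost (217 kb, 16.5% called earlier, 2.05% homeobox) and 49.1% of exit-gained contacts were called earlier. Without day 14, 19811 were exit-lost (229 kb, 14.3%, 2.27%) and 49.0% of exit-gained were called earlier. Without NE, 25809 were exit-gained (224 kb, 15.5% called earlier) and 58.1% of exit-lost were called earlier. Without DE, 28531 were exit-gained (228 kb, 16.1%) and 55.1% of exit-lost were called earlier. These 4 settings ask for fewer conditions. A gene link margin of 0 kb gave homeobox shares of 0.938% exit-gained and 5.08% exit-lost, and 5 kb gave 4.51% and 12.1%. Settings chosen after seeing the data left out the HOXA locus, which gave 4.18% exit-lost, chromosome 12, which gave 0.944% exit-gained, or contacts over 1 Mb, which moved none of these values beyond its interval. The cause of these shifts was not tested, except where a setting has fewer contacts or conditions. No paired analysis was possible because the matrix holds 1 column per condition, and for the same reason leaving out a replicate was not run.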
